A study of Homo sapiens with 9 samples.

Results

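The genes described here encode microtubule-associated and microtubule-regulating proteins: 35 named genes, taken as those to which a probe set of the arrays was annotated. All 35 were measured, by 73 probe sets, among 11963 genes and 22215 human probe sets in all. The RNA came from MDA-MB-231, a human breast cancer cell line, in 3 states: docetaxel-resistant cells kept in 2 nM docetaxel, paclitaxel-resistant cells kept in 7 nM paclitaxel, and sensitive cells kept in 1 µM verapamil without a taxane. The labels name verapamil, an inhibitor of drug efflux, for all 3 groups, and give its dose for the sensitive cells. Each group had 3 arrays, from separate passages of 1 cell line, so the p-values measure the spread between passages. The state of resistance, the drug in the medium and the history of each line cannot be told apart.

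Microtubules are polymers of alpha- and beta-tubulin that grow and shrink mainly at their plus ends. Taxanes such as docetaxel and paclitaxel bind beta-tubulin inside the polymer and stabilize it. The proteins described here act on the same polymer: structural microtubule-associated proteins (MAPs) bind along the lattice, plus-end factors control growth and rescue, stathmins and the kinesin-13 motors promote disassembly, severing enzymes cut the lattice, and the tubulin folding cofactors assemble the tubulin dimer.

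The arrays had median intensities of 33.7 (sensitive replicate 2) to 43.9 (docetaxel-resistant replicate 3), and 24.0% to 27.0% of the probe sets lay under 16 on each array. Profiles correlated at 0.967 or more within groups, against 0.889 to 0.954 between docetaxel-resistant and sensitive arrays and 0.906 to 0.948 between paclitaxel-resistant and sensitive arrays. The 3′ minus 5′ difference of GAPDH, a sign of RNA quality, was 0.00665 to 0.13 on the docetaxel-resistant, 0.0935 to 0.201 on the paclitaxel-resistant and 0.0145 to 0.0389 on the sensitive arrays. The labels call the cells epithelial. KRT18, a simple epithelial keratin, averaged 3320 in docetaxel-resistant, 3150 in paclitaxel-resistant and 3640 in sensitive cells, while EPCAM, an epithelial adhesion protein, stood at 14.8, 14.3 and 22.1 in the same order. Of 13 epithelial markers 1 rose and 2 fell in docetaxel-resistant cells, and 1 rose and 1 fell in paclitaxel-resistant cells. These are 23.1% and 15.4% of the list, against 21% and 21.6% of all genes called in either direction. The tight-junction claudin CLDN4 averaged 5.19 in docetaxel-resistant, 216 in paclitaxel-resistant and 207 in sensitive cells, CLDN7 averaged 96.6, 110 and 271, and the keratin KRT7 averaged 665, 806 and 424. Of 10 mesenchymal markers 5 fell and 1 rose in each comparison with sensitive cells, or 60% called against the same shares of all genes. The 1 that rose was SPARC, at 251 in docetaxel-resistant, 101 in paclitaxel-resistant and 15.6 in sensitive cells. Their summed intensity was 6865 to 7461 in docetaxel-resistant, 8274 to 9120 in paclitaxel-resistant and 12980 to 15220 in sensitive cells. Most of that sum was VIM, which averaged 4680, 5220 and 8340 in the same order. The part of these differences in the results below was not tested, and in bulk RNA fewer cells of a type and less RNA per cell cannot be told apart.

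The promoters of KIF2C, TBCC and CKAP5 are shown because each of these genes passed the test in both comparisons with sensitive cells, kept its call when any 1 array was left out, and has 1 annotated start. Sequences are from RefSeq on GRCh38.p14 and run 5′ to 3′ on the gene's strand over the 250 bases before the start. Capitals mark CCAAT, the core of a promoter box bound by NF-Y, and GGGCGG, the core of a GC box, with ATTGG and CCGCCC on the other strand.
TBCC (chr6:42746104-42746353, minus strand): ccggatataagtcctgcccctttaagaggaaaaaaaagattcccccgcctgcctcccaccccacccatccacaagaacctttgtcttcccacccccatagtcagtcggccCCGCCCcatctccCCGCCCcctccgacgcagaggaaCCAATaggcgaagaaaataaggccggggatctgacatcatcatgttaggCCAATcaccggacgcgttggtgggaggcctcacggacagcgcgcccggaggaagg
KIF2C (chr1:44739587-44739836, plus strand): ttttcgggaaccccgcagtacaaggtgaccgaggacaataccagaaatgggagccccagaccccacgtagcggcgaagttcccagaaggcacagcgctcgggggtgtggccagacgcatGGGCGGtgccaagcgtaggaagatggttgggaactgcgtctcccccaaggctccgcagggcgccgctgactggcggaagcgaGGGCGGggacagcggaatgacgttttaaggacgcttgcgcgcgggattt
CKAP5 (chr11:46846281-46846530, minus strand): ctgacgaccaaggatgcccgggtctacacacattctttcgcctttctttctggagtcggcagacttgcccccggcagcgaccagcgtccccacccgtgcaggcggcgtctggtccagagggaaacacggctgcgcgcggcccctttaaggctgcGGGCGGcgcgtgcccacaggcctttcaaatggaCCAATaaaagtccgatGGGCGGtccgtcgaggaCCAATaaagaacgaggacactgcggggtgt
TBCC and CKAP5 each hold 2 CCAAT and 2 GC-box matches, and KIF2C holds 2 GC-box matches and no CCAAT. TBCC fell and CKAP5 rose in both resistant lines, and both windows hold both motifs. Over all 35116 promoter windows searched in the same way, 32% held CCAAT and 42.6% held GGGCGG. Counted by gene over all its windows, 59.4% of the 32 members with a promoter entry held CCAAT and 81.2% held GGGCGG. Of all 27305 genes with an entry, on the arrays or not, 37% and 46.2% did. A gene with more starts has more windows in which a motif can be found. Only 16 of the 32 members have 1 start, while the 27305 genes share 35116 windows, so these shares are not matched. Both motifs were common among the members. Of the other genes described at length, MID1 and HDAC6 lie on chromosome X, MAP1B on chromosome 5, MAP4 and CLASP2 on chromosome 3 and CLIP2 on chromosome 7, per RefSeq.

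In docetaxel-resistant cells 6 of the 35 genes rose, 3 fell and 26 did not pass the test (adjusted p below 0.05, limma with Benjamini-Hochberg adjustment over all genes), a share of 25.7% against 21% of all genes, of which 10.8% rose and 10.2% fell. The genes that rose were MID1, MAP1B, CKAP5, TBCE, CLASP1 and MAPRE2, and those that fell were TBCC, KIF2C and HDAC6. The median difference of the 35 was 0.14 on the log2 scale, beside -0.05 for all genes, with a range of -1.20 to 1.72. After normalization the docetaxel-resistant and sensitive arrays did not overlap in 13 of the 35, or 37.1%, against 36.8% of all genes. In paclitaxel-resistant cells 10 genes rose, 2 fell and 23 did not pass, a share of 34.3% against 21.6% of all genes, of which 10.8% rose and 10.7% fell. Here MID1, MAP1B, CKAP5, CLIP2, MAPRE3, KATNA1, MAPRE1, CLASP1, MAPT and TBCA rose, and TBCC and KIF2C fell. The median difference was 0.23, beside -0.03 for all genes, with a range of -1.32 to 1.35. The paclitaxel-resistant and sensitive arrays did not overlap in 18, or 51.4%, against 34.8% of all genes. A test for any difference among the 3 groups called 9 of the 35, against 24.1% of all genes: MAP1B, MAPT, CLASP1, CLIP2, KIF2C, HDAC6, TBCC, MID1 and CKAP5. The same 3 sensitive arrays serve as reference in both comparisons, so these counts are not independent of each other. Differences are of log2(intensity + 16), which understates the change of dim probe sets.

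The share that passed depended on brightness. Of the 23 members at or above the median gene's level, 34.8% passed in docetaxel-resistant and 43.5% in paclitaxel-resistant cells, against 33.2% and 34.3% of all genes that bright. Of the 12 dimmer members 8.33% and 16.7% passed, against 8.71% and 8.84% of all dimmer genes. The dimmer members are MAP2, MAPT, MAP7, STMN2, CLASP1, CLIP1, KIF2A, KIF5A, KIF5C, TPPP, SPAST and DCLK1. Intensities are compared only within a probe set.

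**Figure D1:**
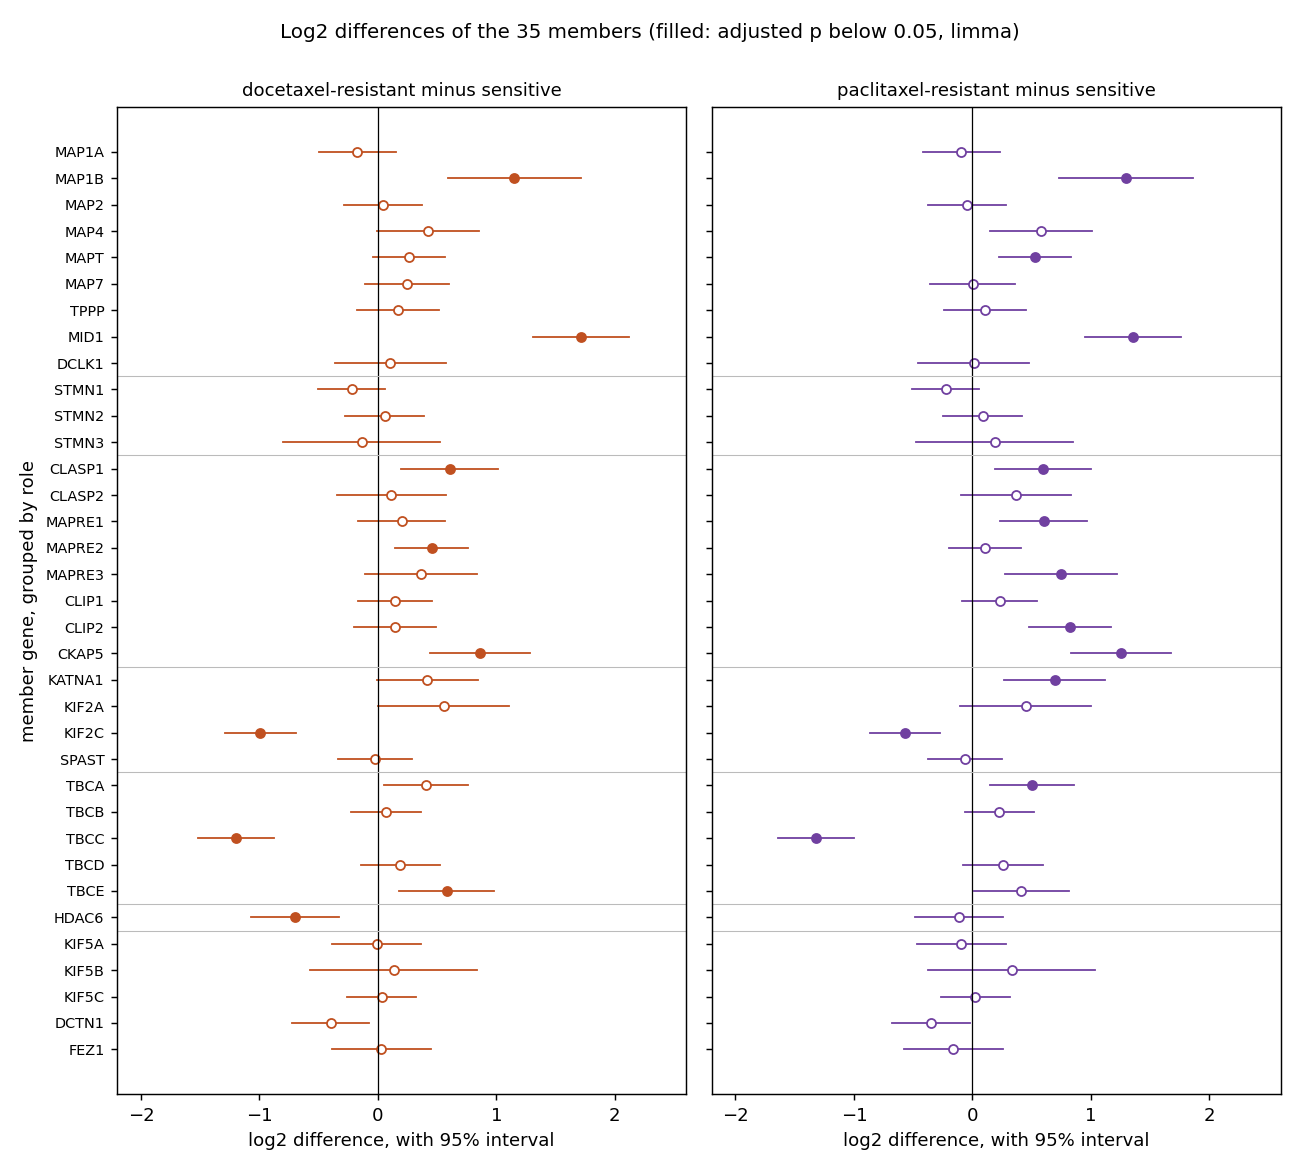
Differences of the 35 members on the log2(intensity + 16) scale (horizontal axis, with 95% intervals) between docetaxel-resistant and sensitive cells (left) and between paclitaxel-resistant and sensitive cells (right), 3 arrays a group, with members grouped by role down the page. Filled points passed the test: 9 on the left and 12 on the right, with TBCC and KIF2C on the negative side of both panels.

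Among the 9 structural MAPs and lattice-binding proteins, 2 rose in docetaxel-resistant and 3 in paclitaxel-resistant cells, and none fell, beside 21% and 21.6% of all genes called in either direction. MID1, a microtubule-binding ubiquitin ligase of the TRIM family, had intensities of 173, 181 and 276 in docetaxel-resistant cells and 163, 139 and 128 in paclitaxel-resistant cells, against 52.7, 28.9 and 56.8 in sensitive cells. Every resistant array lay above every sensitive array. The log2 difference was 1.72 ± 0.19 (SE, n = 3 each, adjusted p = 9.64e-05, a fold of 3.28 with the pseudocount) in docetaxel-resistant cells and 1.35 ± 0.19 (adjusted p = 0.000431, 2.55-fold) in paclitaxel-resistant cells. MAP1B, a MAP best known from growing axons, had 353, 197 and 435 in docetaxel-resistant and 383, 355 and 251 in paclitaxel-resistant cells, against 105, 115 and 129.8 in sensitive cells. Its docetaxel-resistant arrays were widely spread but did not overlap the sensitive ones. The difference was 1.15 ± 0.26 (adjusted p = 0.0081) in docetaxel-resistant and 1.30 ± 0.26 (adjusted p = 0.0041) in paclitaxel-resistant cells.

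MAP1B and MAPT are best known as neuronal genes, so the neuronal marker list stands beside them. None of 19 measured neuronal markers rose in either line and 1, the adhesion molecule L1CAM, fell by 1.57 on the log2 scale in docetaxel-resistant cells and fell by 1.78 in paclitaxel-resistant cells. That is 5.26% of the list called in each comparison, against 21% and 21.6% of all genes called in either direction. The summed intensity of the 19 was 892.7 to 1097 in docetaxel-resistant, 1207 to 1408 in paclitaxel-resistant and 1208 to 1327 in sensitive cells, and 4 of them were under 16 in all groups. ENO2 alone averaged 519 in docetaxel-resistant, 869 in paclitaxel-resistant and 670 in sensitive cells, and was the largest part of the sum. L1CAM averaged 60.9, 47 and 194 in the same order, so the sum followed both genes. ENO2 passed in neither comparison with sensitive cells (adjusted p = 0.131 and 0.219). MAPT, the gene of tau, had 37.1, 56.3 and 49.35 in docetaxel-resistant and 54.0, 56.7 and 56.5 in paclitaxel-resistant cells, against 33.9, 27.5 and 34.35 in sensitive cells. It differed by 0.27 ± 0.14 (adjusted p = 0.211) in docetaxel-resistant cells, where it did not pass, and rose by 0.53 ± 0.14 (adjusted p = 0.0185) in paclitaxel-resistant cells. A second of its 4 probe sets had 32.8, 41.65 and 35.7 in docetaxel-resistant and 41.7, 53.1 and 38.2 in paclitaxel-resistant cells, against 19.2, 20.4 and 18.4 in sensitive cells, with every resistant array above every sensitive one. In the fit over all probe sets it rose by 0.48 ± 0.15 (adjusted p = 0.0411) in docetaxel-resistant and by 0.73 ± 0.15 (adjusted p = 0.00478) in paclitaxel-resistant cells. The remaining MAPT probe sets differed by 0.15 and -0.10 in docetaxel-resistant and by 0.27 and 0.16 in paclitaxel-resistant cells without passing. The MAPT calls in both comparisons thus depend on the probe set. MAP1A, MAP2, MAP7, TPPP, which bundles microtubules, and DCLK1, a doublecortin-like kinase, differed by -0.17 to 0.25 in docetaxel-resistant and -0.09 to 0.10 in paclitaxel-resistant cells without passing.

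**Figure D2:**
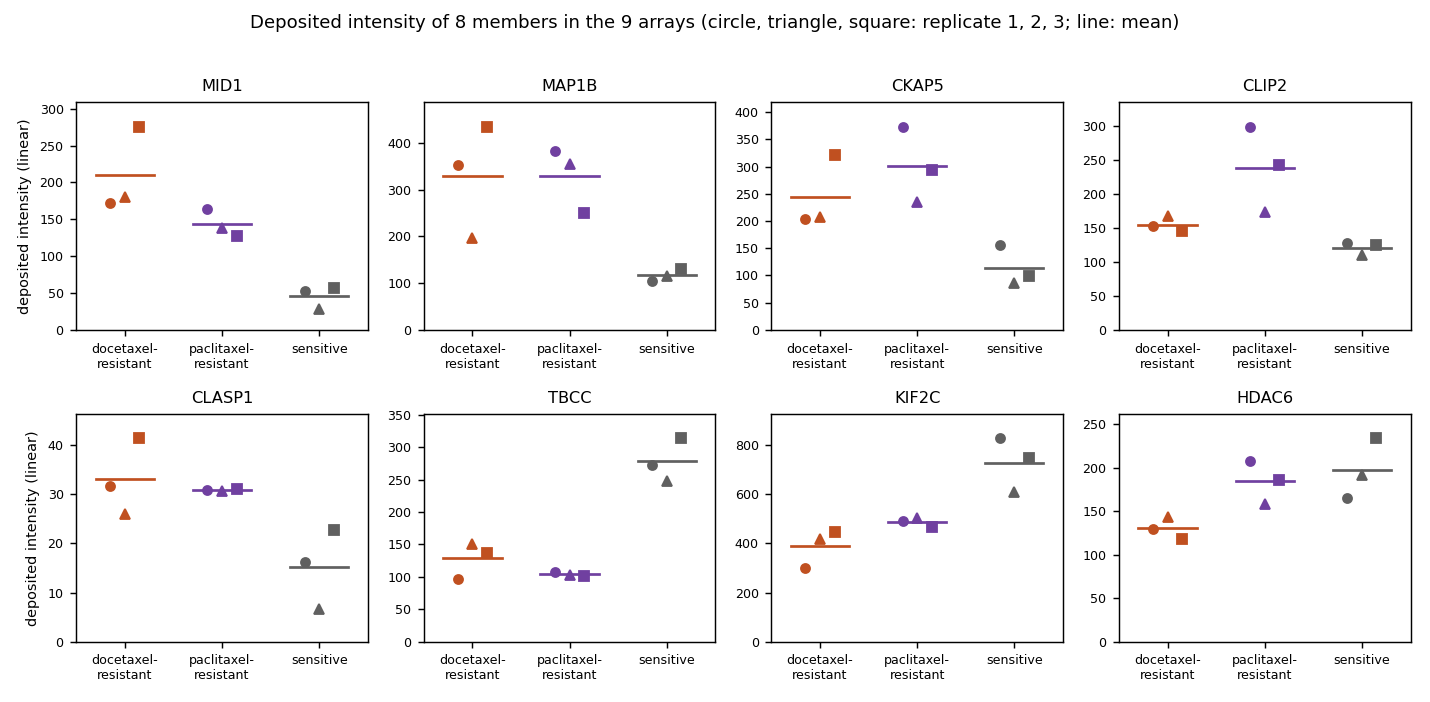
Deposited intensity (linear vertical axis from 0) of 8 genes on each array of docetaxel-resistant, paclitaxel-resistant and sensitive cells; symbols are the 3 replicates and lines the group means. In MID1, MAP1B, CKAP5 and CLASP1 all 6 resistant arrays lie above the 3 sensitive ones, in TBCC and KIF2C all 6 lie below, and CLIP2 and HDAC6 show 1 resistant line apart from the other.

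The 8 plus-end factors gave 3 higher calls in docetaxel-resistant and 5 in paclitaxel-resistant cells, beside 10.8% of all genes called higher in each comparison, and no lower call. Their median differences were 0.28 and 0.60. CKAP5 (chTOG), a microtubule polymerase, had 204, 208 and 322 in docetaxel-resistant and 374, 236 and 294 in paclitaxel-resistant cells, against 155, 85.4 and 99.75 in sensitive cells. All 6 resistant arrays lay above the sensitive ones, while the resistant lines overlapped each other, and the differences from sensitive cells were 0.86 ± 0.19 (adjusted p = 0.00819) in docetaxel-resistant and 1.26 ± 0.19 (adjusted p = 0.00088) in paclitaxel-resistant cells. The call in docetaxel-resistant cells was lost when the arrays of lowest and highest median, sensitive replicate 2 and docetaxel-resistant replicate 3, were left out together (adjusted p = 0.0821).

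CLASP1, which promotes rescue at plus ends, had 31.6, 26.0 and 41.3 in docetaxel-resistant and 30.8, 30.6 and 31.0 in paclitaxel-resistant cells, against 16.1, 6.60 and 22.7 in sensitive cells. It was dim, and sensitive replicate 2 lay below the pseudocount of 16. The differences of 0.61 ± 0.19 (adjusted p = 0.0382) and 0.60 ± 0.19 (adjusted p = 0.0394) became 0.40 (adjusted p = 0.118) and 0.39 (adjusted p = 0.118) without sensitive replicate 2 in docetaxel-resistant and paclitaxel-resistant cells.

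The end-binding proteins, which track growing plus ends and recruit other factors, are MAPRE1 (EB1), MAPRE2 and MAPRE3. MAPRE1 had 997, 1086 and 1235 in docetaxel-resistant and 1377, 1555 and 1339.6 in paclitaxel-resistant cells, against 1133, 607 and 1068 in sensitive cells. MAPRE3 had 98.6, 83.5 and 63.4 in docetaxel-resistant and 87.1, 115 and 104 in paclitaxel-resistant cells, against 38.6, 51.2 and 64.4 in sensitive cells. In both, the paclitaxel-resistant arrays lay above all sensitive arrays and the docetaxel-resistant ones overlapped them. MAPRE1 rose by 0.60 ± 0.17 (adjusted p = 0.0243) and MAPRE3 by 0.75 ± 0.22 (adjusted p = 0.0279) in paclitaxel-resistant cells, beside 0.20 (adjusted p = 0.455) and 0.36 (adjusted p = 0.275) in docetaxel-resistant cells. MAPRE2 had 213, 236 and 250.4 in docetaxel-resistant and 178, 131 and 192 in paclitaxel-resistant cells, against 161, 116 and 171 in sensitive cells. Only its docetaxel-resistant arrays stood apart, and it rose there by 0.45 ± 0.14 (adjusted p = 0.0397), beside 0.11 (adjusted p = 0.666) in paclitaxel-resistant cells. In the fit over all probe sets, the other MAPRE1 probe set differed by 0.44 (adjusted p = 0.151) in paclitaxel-resistant cells. The other MAPRE3 probe sets differed there by 0.13 and 0.21 (adjusted p = 0.606 and 0.414). The other MAPRE2 probe sets differed by 0.10 and 0.09 in docetaxel-resistant cells (adjusted p = 0.763 and 0.843). None of these passed, so the calls of all 3 genes depend on the probe set.

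CLIP2 (CLIP-115), a linker protein at plus ends, had 153, 167 and 146 in docetaxel-resistant and 299.9, 174 and 243 in paclitaxel-resistant cells, against 128, 109.9 and 126 in sensitive cells. Paclitaxel-resistant arrays lay above all others. It rose by 0.82 ± 0.16 (adjusted p = 0.00332) in paclitaxel-resistant cells and differed by 0.14 ± 0.16 (adjusted p = 0.591) in docetaxel-resistant cells. CLIP1 (CLIP-170), its relative, differed by 0.14 (adjusted p = 0.534) and 0.23 (adjusted p = 0.312) in docetaxel-resistant and paclitaxel-resistant cells and passed in neither.

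CLASP2, the paralog of CLASP1, gave a different result by probe set. Of its 3, the brightest, which stands for the gene above, had 111, 97.4 and 105 in docetaxel-resistant and 106, 132 and 109 in paclitaxel-resistant cells, against 90.5, 93.5 and 61.1 in sensitive cells. All its resistant arrays lay above its sensitive arrays before normalization, but the ranges overlapped after it. Its differences of 0.12 (adjusted p = 0.76) and 0.37 (adjusted p = 0.269) did not pass. The second brightest had 104, 124 and 196 in docetaxel-resistant and 143, 96.1 and 94.1 in paclitaxel-resistant cells, against 36.15, 7.01 and 18.4 in sensitive cells. The dimmest had 61.8, 84.1 and 121 in docetaxel-resistant and 123, 55.0 and 63.3 in paclitaxel-resistant cells, against 20.3, 5.32 and 13.3 in sensitive cells. In both of these every resistant array lay above every sensitive one, with differences of 2.02 ± 0.27 (adjusted p = 0.000359) and 1.72 ± 0.24 (adjusted p = 0.000586) in docetaxel-resistant cells and 1.85 ± 0.27 (adjusted p = 0.000616) and 1.67 ± 0.24 (adjusted p = 0.000665) in paclitaxel-resistant cells, in the fit over all probe sets. These CLASP2 differences were chosen for description after their values were seen, and the transcript region each probe set covers was not analysed here.

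MAP4, the main MAP of non-neuronal cells, also differed in its calls between probe sets. Its brightest had 1337, 1159 and 1009 in docetaxel-resistant and 1375, 1184 and 1160.0 in paclitaxel-resistant cells, against 699, 762 and 1025 in sensitive cells. Sensitive replicate 3 reached the docetaxel-resistant range, and the differences of 0.42 ± 0.20 (adjusted p = 0.161) and 0.58 ± 0.20 (adjusted p = 0.0581) did not pass. The next one called in both comparisons had 384, 329 and 287 in docetaxel-resistant and 471, 391 and 353 in paclitaxel-resistant cells, against 191, 200.4 and 191 in sensitive cells. It rose by 0.60 ± 0.18 (adjusted p = 0.0399) in docetaxel-resistant and by 0.97 ± 0.18 (adjusted p = 0.00303) in paclitaxel-resistant cells. Of the 6 MAP4 probe sets, 4 rose in paclitaxel-resistant and 2 in docetaxel-resistant cells, and none fell.

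**Figure D3:**
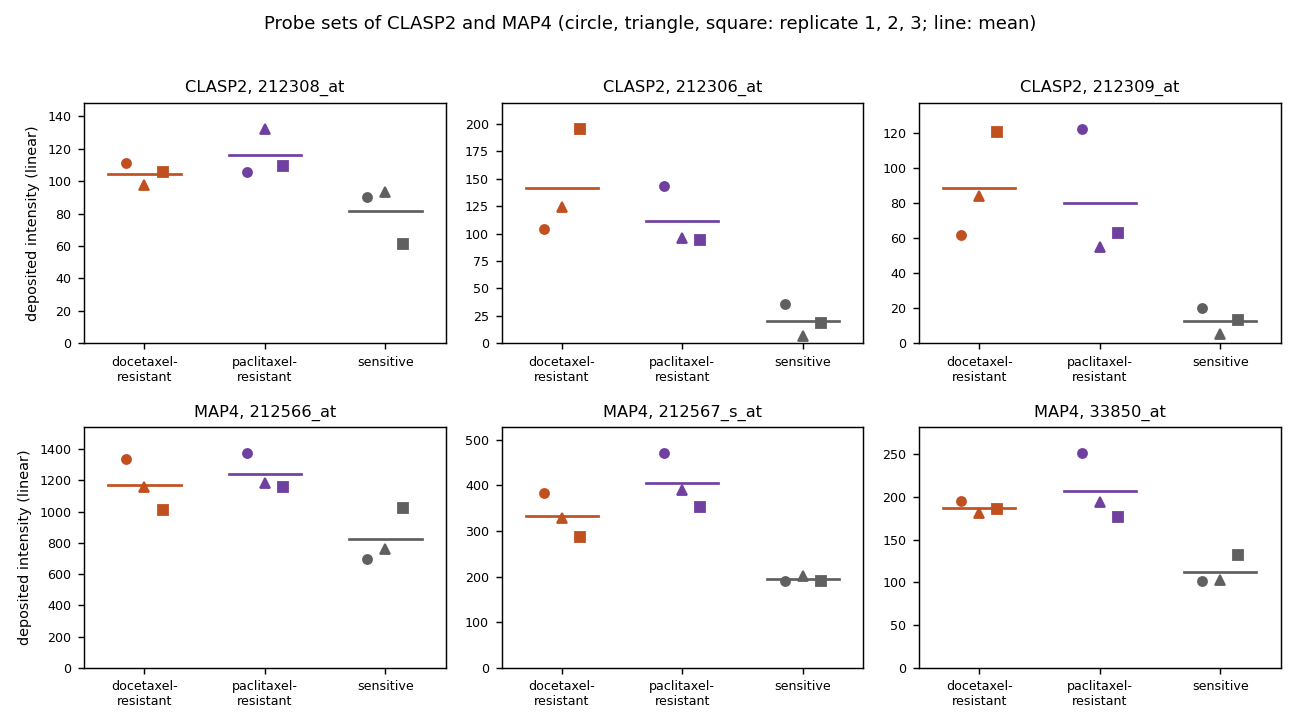
Deposited intensity (linear vertical axis from 0) of 3 probe sets of CLASP2 (top) and 3 of MAP4 (bottom), in order of brightness, on each array of docetaxel-resistant, paclitaxel-resistant and sensitive cells. Symbols are replicates and lines the group means. The MAP4 panels show the brightest probe set and those called higher in both comparisons with sensitive cells, so other MAP4 probe sets are left out. For CLASP2 the sensitive arrays stand at 36.15 or lower in the middle and right panels but at 61.1 to 93.5 in the left panel, the brightest probe set.

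Across all 73 probe sets, 17 passed in docetaxel-resistant cells (12 higher and 5 lower, in 12 members, against 17.7% of all probe sets, 9.34% higher and 8.32% lower) and 22 in paclitaxel-resistant cells (19 higher and 3 lower, in 15 members, against 18.6% of all probe sets, 9.21% higher and 9.37% lower). No member had called probe sets in both directions. KIF2C fell on both of its probe sets in both comparisons, and MID1 rose on a second probe set by 1.59 ± 0.16 and 1.17 ± 0.16 in docetaxel-resistant and paclitaxel-resistant cells. The second MAP1B probe set, at 66.5 to 96.2 in docetaxel-resistant, 64.3 to 71.7 in paclitaxel-resistant and 34.85 to 57.7 in sensitive cells, differed by 0.37 (adjusted p = 0.228) and 0.27 (adjusted p = 0.395) and did not pass.

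Of the 4 severing and depolymerizing enzymes, KIF2C fell in both lines and KATNA1 rose in paclitaxel-resistant cells. KIF2C (MCAK), a kinesin-13 that depolymerizes microtubules at centromeres and spindle poles, had 298, 418 and 446 in docetaxel-resistant and 491, 501 and 467 in paclitaxel-resistant cells, against 826, 607 and 747 in sensitive cells. No resistant array reached the lowest sensitive one. It fell by 0.99 ± 0.14 on the log2 scale (adjusted p = 0.000432) in docetaxel-resistant and by 0.57 ± 0.14 (adjusted p = 0.0108) in paclitaxel-resistant cells, where the adjusted p was 0.0518 with no further normalization of the deposited values.

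KATNA1, the catalytic subunit of the severing enzyme katanin, had 59.7, 72.0 and 93.5 in docetaxel-resistant and 101, 73.6 and 82.95 in paclitaxel-resistant cells, against 64.8, 27.6 and 45.75 in sensitive cells. The docetaxel-resistant arrays overlapped the sensitive ones. It differed by 0.42 ± 0.19 (adjusted p = 0.161) in docetaxel-resistant and rose by 0.70 ± 0.19 (adjusted p = 0.0244) in paclitaxel-resistant cells. KIF2A, the other kinesin-13, had 40.35, 49.4 and 107 in docetaxel-resistant and 58.95, 40.4 and 54.7 in paclitaxel-resistant cells, against 38.7, 17.4 and 41.5 in sensitive cells. Its differences of 0.56 (adjusted p = 0.15) and 0.45 (adjusted p = 0.257) did not pass, and docetaxel-resistant replicate 3 was high and sensitive replicate 2 low. SPAST (spastin), a second severing enzyme, differed by -0.02 and -0.07.

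The tubulin folding cofactors TBCA to TBCE bring alpha- and beta-tubulin together. TBCC, which triggers GTP hydrolysis and release of the finished dimer, had 96.85, 151 and 138 in docetaxel-resistant and 107, 104 and 101 in paclitaxel-resistant cells, against 273, 248 and 313 in sensitive cells. The highest resistant array lay well under the lowest sensitive one. TBCC fell by 1.20 ± 0.15 (adjusted p = 0.000203) in docetaxel-resistant and by 1.32 ± 0.15 (adjusted p = 9.84e-05) in paclitaxel-resistant cells, on its single probe set.

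No other cofactor was called lower. TBCE, which acts on alpha-tubulin, had 134.9, 168 and 220.0 in docetaxel-resistant and 176, 123 and 121 in paclitaxel-resistant cells, against 131, 61.1 and 109 in sensitive cells. It rose by 0.58 ± 0.18 (adjusted p = 0.0433) in docetaxel-resistant cells and differed by 0.41 ± 0.18 (adjusted p = 0.142) in paclitaxel-resistant cells. Its other probe set gave the calls the other way round, 0.39 ± 0.18 (adjusted p = 0.169) in docetaxel-resistant and 0.57 ± 0.18 (adjusted p = 0.0434) in paclitaxel-resistant cells, so the line in which TBCE passed depends on the probe set. TBCA, which holds beta-tubulin, had 910.0, 1043 and 1346 in docetaxel-resistant and 1246, 1161 and 968 in paclitaxel-resistant cells, against 995, 566 and 836 in sensitive cells. The ranges overlapped before normalization, and the gene differed by 0.40 ± 0.16 (adjusted p = 0.102) in docetaxel-resistant and rose by 0.50 ± 0.16 (adjusted p = 0.0445) in paclitaxel-resistant cells. TBCB and TBCD differed by 0.07 and 0.19 in docetaxel-resistant and by 0.23 and 0.26 in paclitaxel-resistant cells without passing. The other TBCD probe sets had the opposite sign, at -0.38 and -0.29 in docetaxel-resistant and -0.41 and -0.22 in paclitaxel-resistant cells, also without passing. The sign of the TBCD difference thus depends on the probe set.

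HDAC6, the cytoplasmic deacetylase of alpha-tubulin, had 129.86, 144 and 118 in docetaxel-resistant and 208, 159 and 186 in paclitaxel-resistant cells, against 165, 192 and 234 in sensitive cells. The docetaxel-resistant arrays lay below all others, while paclitaxel-resistant and sensitive arrays overlapped. HDAC6 fell by 0.70 ± 0.17 (adjusted p = 0.0126) in docetaxel-resistant cells and differed by -0.11 ± 0.17 (adjusted p = 0.71) in paclitaxel-resistant cells. Its call was lost without docetaxel-resistant replicate 3 (adjusted p = 0.0555), and the adjusted p was 0.133 with sensitive replicate 2 left out as well. In the fit over all probe sets, a second HDAC6 probe set fell by 0.47 ± 0.13 (adjusted p = 0.0241) in docetaxel-resistant cells. It differed by -0.31 ± 0.13 (adjusted p = 0.122) in paclitaxel-resistant cells. The remaining HDAC6 probe set, which was dim, differed by -0.03 and -0.15 without passing.

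The stathmins, which sequester tubulin dimers and promote shrinkage, gave no call. STMN1 was the bright one, with 660.4, 738 and 824 in docetaxel-resistant and 808, 668 and 653 in paclitaxel-resistant cells, against 1028, 652 and 813 in sensitive cells. The ranges overlapped before normalization, while after it every resistant array lay below every sensitive one. Its differences of -0.22 (95% interval -0.50 to 0.06, adjusted p = 0.262) and -0.23 (-0.51 to 0.05, adjusted p = 0.259) did not pass. STMN2, near the pseudocount, and STMN3 differed by 0.06 and -0.13 in docetaxel-resistant and 0.09 and 0.19 in paclitaxel-resistant cells.

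The transport group gave no call either. KIF5A, KIF5B and KIF5C are heavy chains of kinesin-1, the plus-end-directed cargo motor, and DCTN1 (p150Glued) is the large dynactin subunit that couples dynein to microtubules. DCTN1 had 201, 213 and 175 in docetaxel-resistant and 197, 159 and 199.9 in paclitaxel-resistant cells, against 246, 199 and 268 in sensitive cells. Its differences of -0.40 (95% interval -0.73 to -0.07, adjusted p = 0.0833) and -0.35 (-0.68 to -0.02, adjusted p = 0.128) did not pass. KIF5B reached 296 on docetaxel-resistant replicate 3, against 90.8 and 89.4 on the other docetaxel-resistant arrays and 104 to 113 in sensitive cells, and differed by 0.13 ± 0.32. The remaining members, KIF5A, KIF5C and FEZ1, a kinesin-1 adaptor, differed by -0.16 to 0.03 in both comparisons.

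No member passed between the resistant lines in limma, where 1.96% of all genes did, and 5 had an unadjusted p below 0.05, against 13.1% of all genes; the arrays of the 2 lines did not overlap in 8, or 22.9%, against 20.4% of all genes. Those 5 were CLIP2, HDAC6, KIF2C, MAPRE2 and MAPRE1. CLIP2 was nearest, with a paclitaxel-resistant minus docetaxel-resistant difference of 0.68 (95% interval 0.34 to 1.03, adjusted p = 0.0542), and 3 paclitaxel-resistant arrays above the 3 docetaxel-resistant ones. The same difference was 0.58 for HDAC6 (0.21 to 0.95, adjusted p = 0.113), 0.42 for KIF2C (0.13 to 0.72, adjusted p = 0.156), 0.40 for MAPRE1 (0.03 to 0.77, adjusted p = 0.319) and -0.35 for MAPRE2 (-0.65 to -0.04, adjusted p = 0.298). For MID1, whose paclitaxel-resistant arrays lay below the docetaxel-resistant ones, it was -0.36 (-0.77 to 0.04, adjusted p = 0.459). A call in 1 resistant line and not in the other, as in CLIP2 or HDAC6, is not shown to differ between the lines. The fit over all probe sets gave no member call here either, against 1.6% of all probe sets.

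**Figure D4:**
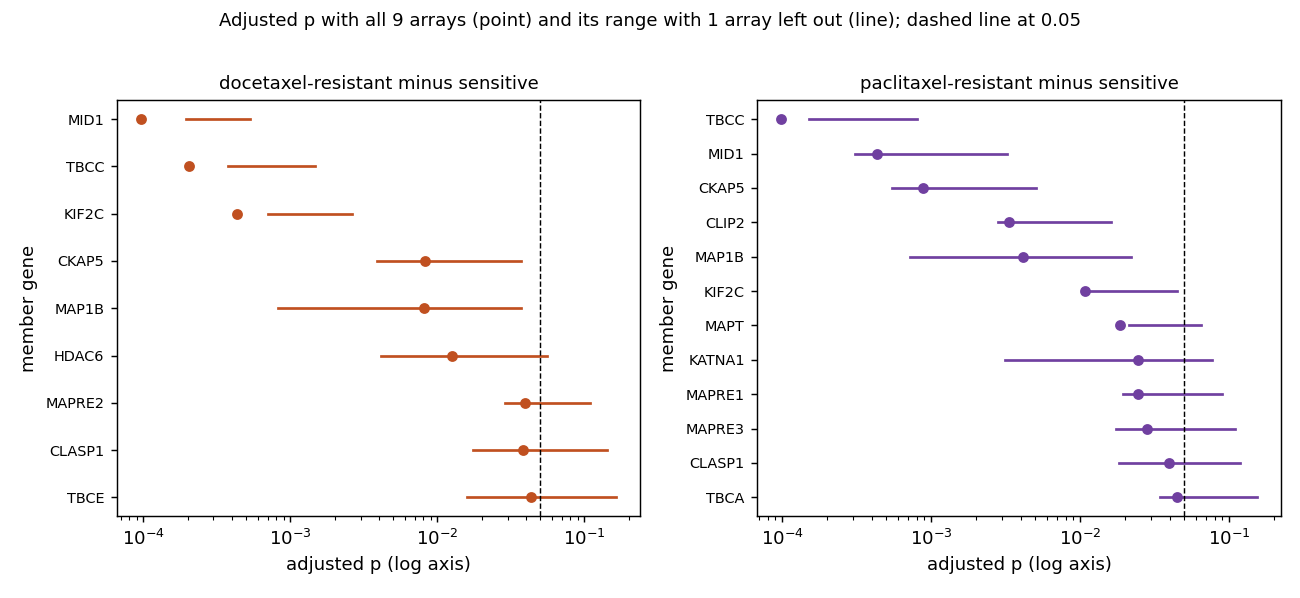
Adjusted p (horizontal log axis) of each called member with all 9 arrays (point) and its range when 1 array is left out in turn (line), for docetaxel-resistant minus sensitive (left) and paclitaxel-resistant minus sensitive (right); the dashed line marks 0.05. Lines of MID1, TBCC, KIF2C, CKAP5 and MAP1B on both sides and of CLIP2 on the right stay left of 0.05, and the others cross it.

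The calls differed in how far they rested on single arrays. MID1, TBCC, MAP1B, KIF2C and CKAP5 in both comparisons and CLIP2 in paclitaxel-resistant cells kept an adjusted p below 0.05 when any 1 array was left out. With 1 array left out, the adjusted p reached 0.142 for CLASP1, 0.109 for MAPRE2 and 0.165 for TBCE in docetaxel-resistant cells. In paclitaxel-resistant cells it reached 0.0642 for MAPT, 0.089 for MAPRE1, 0.109 for MAPRE3, 0.0772 for KATNA1, 0.118 for CLASP1 and 0.153 for TBCA. In docetaxel-resistant cells MAPRE2 lost its call without any 1 of the docetaxel-resistant or sensitive arrays, TBCE without replicate 2 or 3 of any group, and CLASP1 without docetaxel-resistant replicate 1 or 3, paclitaxel-resistant replicate 2 or 3, or sensitive replicate 2. In paclitaxel-resistant cells MAPT and MAPRE1 lost theirs without paclitaxel-resistant replicate 2 or 3 or sensitive replicate 2, MAPRE3 without paclitaxel-resistant replicate 2 or 3 or sensitive replicate 1, and KATNA1 without any 1 paclitaxel-resistant array or sensitive replicate 2 or 3. CLASP1 kept its call there only without docetaxel-resistant replicate 3 or sensitive replicate 3, and TBCA only without docetaxel-resistant replicate 3, paclitaxel-resistant replicate 3 or sensitive replicate 1.

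Other genes of the microtubule system were counted from lists of their own. Of 14 tubulin folding chaperones, subunits of the CCT and prefoldin complexes and their partners, 8 rose in docetaxel-resistant and 8 in paclitaxel-resistant cells, or 57.1% of the list each against the 21% and 21.6% of all genes, and none fell. Their median differences were 0.54 and 0.60, and PFDN1, a prefoldin subunit, rose by 1.00 ± 0.13 (adjusted p = 0.000386) and 0.67 ± 0.13 (adjusted p = 0.0041). Of 17 tubulins none rose, 2 fell in docetaxel-resistant and 1 in paclitaxel-resistant cells, where TUBA4A, an alpha-tubulin, averaged 224 ± 40.7 in docetaxel-resistant, 211 ± 5.36 in paclitaxel-resistant and 507 ± 107 in sensitive cells (SD, n = 3 each). TUBA4A fell by 1.24 on the log2 scale in docetaxel-resistant cells (adjusted p = 0.000172) and fell by 1.19 in paclitaxel-resistant cells (adjusted p = 0.000214).

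Of 20 dynein and dynactin genes 5 rose in docetaxel-resistant cells, and 4 rose and 1 fell in paclitaxel-resistant cells, a called share of 25% each, near the 21% and 21.6% of all genes. DYNC1LI2, a dynein light intermediate chain, averaged 258 ± 69.9 in docetaxel-resistant and 264 ± 47.4 in paclitaxel-resistant cells, against 66.0 ± 13.4 in sensitive cells, differences of 1.56 ± 0.17 (adjusted p = 0.000113) and 1.71 ± 0.17 (adjusted p = 4.75e-05), and the dynactin subunit DCTN5 fell by 1.00 ± 0.15 (adjusted p = 0.000711) in paclitaxel-resistant cells. Of 29 other kinesin genes 5 rose and 2 fell in docetaxel-resistant cells and 3 rose in paclitaxel-resistant cells, or 24.1% and 10.3% of the list, against the same shares of all genes. KIF23, a midzone kinesin, rose by 1.43 ± 0.26 (adjusted p = 0.00235) and the kinesin-3 motor KIF13B fell by 0.56 ± 0.15 (adjusted p = 0.0191) in docetaxel-resistant cells, and KIFAP3, the kinesin-2 accessory subunit, rose by 0.88 ± 0.14 (adjusted p = 0.00118) in paclitaxel-resistant cells.

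Of 25 spindle and other microtubule-binding genes 4 rose and 3 fell in docetaxel-resistant cells, and 6 rose and 3 fell in paclitaxel-resistant cells, or 28% and 36% of the list against 21% and 21.6% of all genes. NUSAP1, a spindle-bundling protein, rose by 1.51 ± 0.28 (adjusted p = 0.00302) and NUMA1, a spindle-pole protein, fell by 0.65 ± 0.14 (adjusted p = 0.00722) in docetaxel-resistant cells. In paclitaxel-resistant cells GAS2L1, which links microtubules to actin, rose by 1.73 ± 0.14 (adjusted p = 1.41e-05) and TACC2, a centrosomal coiled-coil protein, fell by 1.11 ± 0.18 (adjusted p = 0.00118). The 13 tubulin-modifying enzymes gave 1 higher call in each comparison, or 7.69%, below the share of all genes: AGTPBP1, a deglutamylase, at 0.81 ± 0.26 (adjusted p = 0.0453) in docetaxel-resistant cells and TTLL1, a polyglutamylase subunit, at 0.51 ± 0.13 (adjusted p = 0.0177) in paclitaxel-resistant cells. Of 15 kinases that phosphorylate MAPs 1 fell in docetaxel-resistant cells, and 1 rose and 1 fell in paclitaxel-resistant cells, or 6.67% and 13.3%. GSK3B, a tau kinase, rose by 0.46 ± 0.13 (adjusted p = 0.0264) in paclitaxel-resistant cells. The one that fell was AURKB, the Aurora kinase that phosphorylates KIF2C, by 0.80 ± 0.14 (adjusted p = 0.00223) and by 0.47 ± 0.14 (adjusted p = 0.0342) in docetaxel-resistant and paclitaxel-resistant cells.

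**Figure D5:**
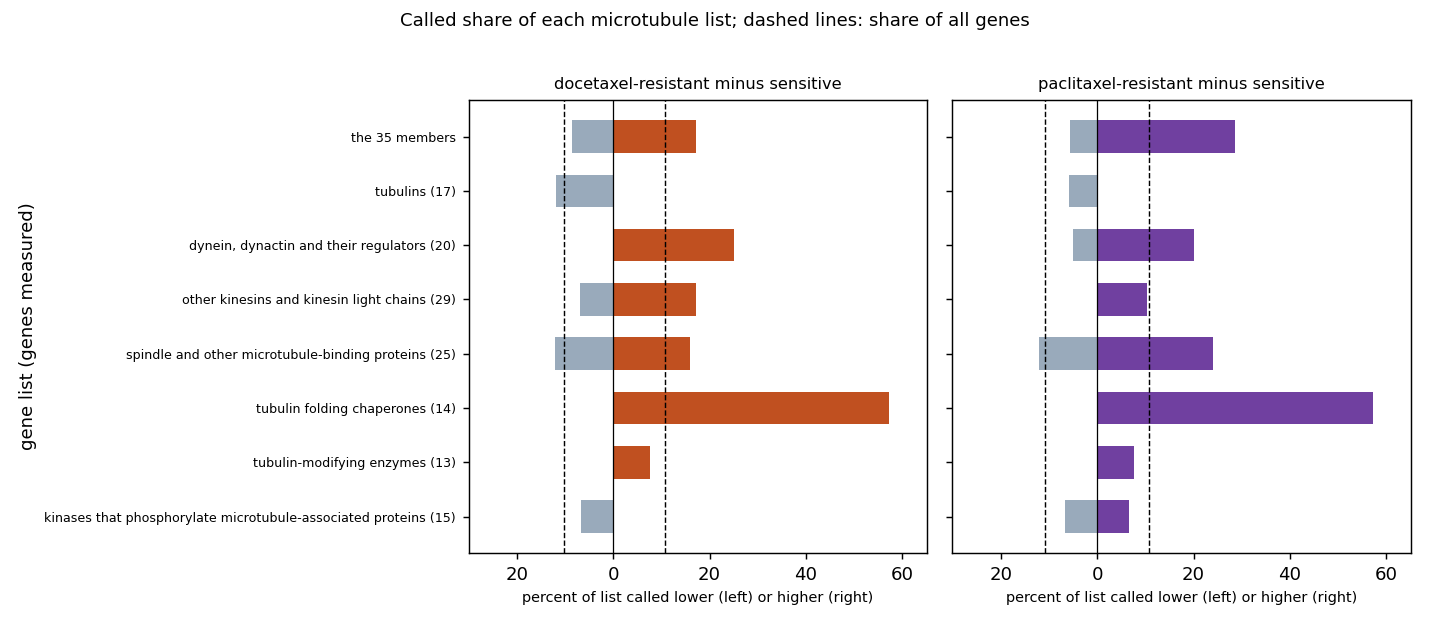
Percent of each microtubule gene list called lower (left of 0) or higher (right of 0) in docetaxel-resistant (left panel) and paclitaxel-resistant (right panel) against sensitive cells, with the number of genes measured in parentheses; dashed lines mark the shares of all genes. The bar of the tubulin folding chaperones reaches 57.1% higher in both panels, and the tubulins have no higher bar.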

How the data were processed

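MDA-MB-231 RNA was hybridized to Affymetrix HU133A arrays, 3 for each of 3 groups taken from the labels. The deposited values are intensities per probe set, made by the authors with PLIER in Affymetrix Expression Console 1.1.2, per the submitters' processing notes; their between-array normalization is not given in the sources used here. Of 22283 probe sets 68 controls were left out. Of the others 19065 name 1 gene in the platform annotation, 1043 name several and 2107 none. Since the array medians differed by 0.27 on the log2 scale, above a limit of 0.2, log2(deposited intensity + 16) was quantile-normalized; this decision, taken on all 9 arrays, was kept when arrays were left out or the pseudocount changed. The probe set with the highest mean stood for its gene (11963 genes). limma 3.58.1 in R 4.3.3 fitted 3 group means and tested 3 contrasts, with Benjamini-Hochberg adjustment over all genes and a call at 0.05; the fit had 6 residual and 5.4 prior degrees of freedom. A second fit used every probe set. How many arrays there are sets the precision. The script was tested on simulated data.

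All 35 members are named, with, of other lists, the called gene of smallest adjusted p in each direction and comparison with sensitive cells. Members and lists were chosen with earlier results of these data known. Promoters are RefSeq's (GRCh38.p14), held for 32 members. Alternatives were other pseudocounts, normalizations, filters, probe set rules and models, and leaving out arrays.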

Additional observations from a re-analysis of the deposited data

How the results depend on the processing

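Directions of called members held under every alternative run (other pseudocounts, normalizations, filters, probe set rules, variance models, subsets of arrays): of the called members' values 341 kept their call and 89 lost it, none reversing. Some settings, such as the filter, the variance model and the replicate block, leave the difference itself unchanged. Those could not have reversed a direction. Of values not called, 15 gained a call and 120 changed sign.

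The number of members called in docetaxel-resistant cells was 9 and ranged from 5 to 9 with 1 array left out, 5 without docetaxel-resistant replicate 3; with sensitive replicate 2 and docetaxel-resistant replicate 3 (the lowest and highest array medians) both left out it was 4. In paclitaxel-resistant cells it was 12, and 6 to 13 with 1 array left out: 6 without paclitaxel-resistant replicate 2, and 7 without paclitaxel-resistant replicate 3 or sensitive replicate 2. It was 7 with a pseudocount of 1, 7 with those 2 arrays left out, and 6 when _x_at and _s_at probe sets were dropped, where only 20 members were measured. Between the resistant lines 1 member, CLIP2, passed with a pseudocount of 64, 1 among genes at or above the median level, and 1 with the mean of all probe sets; 0 to 1 passed with 1 array left out, the 1 without paclitaxel-resistant replicate 2. The test of any difference among the 3 groups called 9 members, 7 to 9 with 1 array left out, and 4 when the _x_at and _s_at probe sets were dropped.

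With the mean of all probe sets CLASP2 rose by 1.28 in docetaxel-resistant and 1.29 in paclitaxel-resistant cells, MAP1B by 0.76 and 0.78, and MID1 by 1.08 and 0.81. Under the same setting MAPRE2 in docetaxel-resistant cells was 0.21 (adjusted p = 0.228) and MAPRE3 in paclitaxel-resistant cells 0.36 (adjusted p = 0.0848), both losing their calls, and HDAC6 in docetaxel-resistant cells was -0.40 (adjusted p = 0.0221). TBCE in docetaxel-resistant and MAPRE1 in paclitaxel-resistant cells lost their calls there too. CLASP1 moved to 1.08 in both with a pseudocount of 1, and to 0.26 in both with 64. TBCE in docetaxel-resistant cells was 0.29 with the same 2 arrays left out.

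With the replicate number as a block, 7 members were called in docetaxel-resistant cells, 11 in paclitaxel-resistant cells, 0 between the lines and 8 by the test of any difference. Same-numbered arrays did not deviate together more than others. Correlations of their deviations ran from -0.452 to 0.337, with 3 of 9 above 0.1. Those of differently numbered arrays ran from -0.452 to 0.474, with 7 of 18 above 0.1, so the numbers were not taken to pair the arrays. Some arrays of different groups thus deviated together without following the numbers, and what they shared was not tested. Dim members, those near an intensity of 16, are the least well measured.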

Other observations

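Between the resistant lines, 3 genes of the other microtubule lists passed, and they are named here after their values were seen. They were 1 of 25 spindle and other microtubule-binding genes, 1 of 13 tubulin-modifying enzymes and 1 of 20 dynein and dynactin genes. The other microtubule lists gave no call, and 1.96% of all genes passed. Whether these lists differ from the members, of which none passed, was not tested. GAS2L1 averaged 1480 ± 87 in paclitaxel-resistant and 637 ± 93.3 in docetaxel-resistant cells, beside 431 ± 85.9 in sensitive cells (SD, n = 3 each), a paclitaxel-resistant minus docetaxel-resistant difference of 1.26 ± 0.14 on the log2 scale (adjusted p = 0.00111). TTLL1 averaged 86 ± 5.45 in paclitaxel-resistant and 43 ± 5.59 in docetaxel-resistant cells, beside 51.5 ± 4.1 in sensitive cells (difference 0.86 ± 0.13, adjusted p = 0.00827). DCTN5 averaged 103 ± 12.2 in paclitaxel-resistant and 207 ± 22.7 in docetaxel-resistant cells, beside 219 ± 41.3 in sensitive cells (difference -0.79 ± 0.15, adjusted p = 0.0208).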
